A study of Mus musculus with 8 samples.

Results

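The genes described here were at a plateau from day 4 of doxycycline (Dox): little different from untreated leukaemia at day 2, well above it at day 4, and at about the same level at day 6. They number 30 of the 12330 genes tested. A gene was taken when its mean CPM (counts scaled to a common library size with the trimmed mean of M values, TMM) at day 4 was at least 4 times the untreated mean and at least 5 CPM. Its day 6 mean had to lie between 0.8 and 1/0.8 times the day 4 mean, called level here. Its day 2 mean had to be under 1.4 times the untreated mean, or its day 2 libraries had to overlap the untreated ones. These conditions use the measured values of all 8 libraries, so the levels given for days 2, 4 and 6 describe the choice and are not tested.

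The cells were AML410, a murine acute myeloid leukaemia of monosomal karyotype that is p53-/- and bears an shRNA, a short hairpin that silences PU.1 (shPU.1), all on the C57BL/6 strain. The hairpin is linked to green fluorescent protein (GFP), and Dox given to the leukaemic mice shut it down. GFP+ cells were sorted from the bone marrow of leukaemic recipients that were untreated (GFPhigh gate) or given Dox for 2 days (GFPhigh-mid), 4 days (GFPmid) or 6 days (GFPlow). Every group, the untreated one included, carries the p53 loss and the hairpin construct, and all carry the one leukaemia label, AML410. The sorting gate moved with time, so the effect of days of Dox and that of the gate cannot be told apart. There were 2 libraries in each of 4 groups. Their titles name them technical replicates, whereas the design text has mice in duplicate, so p-values reflect only how far these samples differ, possibly for technical reasons.

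PU.1 is an ETS family transcription factor, encoded by Spi1, that raises the genes of monocytes and granulocytes as progenitors mature. Maturing phagocytes are known for surface receptors that sense microbes and matrix, for lysosomes, and for an actin cortex rebuilt for movement and engulfment. In bulk RNA, more cells of a kind and more RNA per cell cannot be told apart.

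Totals ran from 9262047 to 11213292 counts per library. Mean CPM of Spi1 was 10.6 untreated, 15.2 on day 2, 98.4 on day 4 and 223 on day 6, so it was 2.26 times as high at day 6 as at day 4 (edgeR adjusted p = 4.68e-05 for a log2 fold change of 1.18 with SE 0.11). The labelled myeloid cells were checked with 9 markers, all of which had counts and whose summed CPM ran from 1154 to 1489 in untreated cells and from 23001 to 24096 at day 6. Most of that sum was Lyz2 (788 to 965 CPM untreated and 18621 to 19489.7 on day 6), whereas Mpo of the same list had 129.5 to 239.9 CPM untreated and at most 185 on day 6. Of 11 listed macrophage markers 8 were tested, and their sum was 195 to 227 CPM untreated, 306 to 307 on day 2, 627 to 666 on day 4 and 858 to 886 on day 6. Most of that sum was Adgre1, which myeloid cells also express. None of these macrophage markers was at 0 in any group, and their part in the levels below was not tested. Of 11 T and NK cell markers 3 were in the tables, and of the 3 megakaryocyte markers in the tables the summed CPM was 4.90 to 16.7 in every library.

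Among all genes, 348 (2.82%) had a day 4 mean of at least 4 times untreated and at least 5 CPM. At day 6, 226 of them stood above 1/0.8 times their day 4 mean, 103 were level and 19 lay below 0.8 times. Thus 29.6% of the raised genes were level between days 4 and 6. Of the 348, 191 stood above untreated by day 2 under the rule and 157 did not. Among the 191 early genes 73 (38.2%) were level after day 4, and among the 157 others 30 (19.1%) were, which are the genes described here. The other 127 of the 157 split into 123 that stood above 1/0.8 times and 4 that lay below 0.8 times their day 4 mean. The median ratio of day 6 to day 4 was 1.07 over the 30 plateau genes and 1.92 over the 123. On the log2 scale the former is 0.10, and scaled by total counts alone it was -0.08, a scaling under which the median of all genes moved from -0.01 to -0.20.

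**Figure D1:**
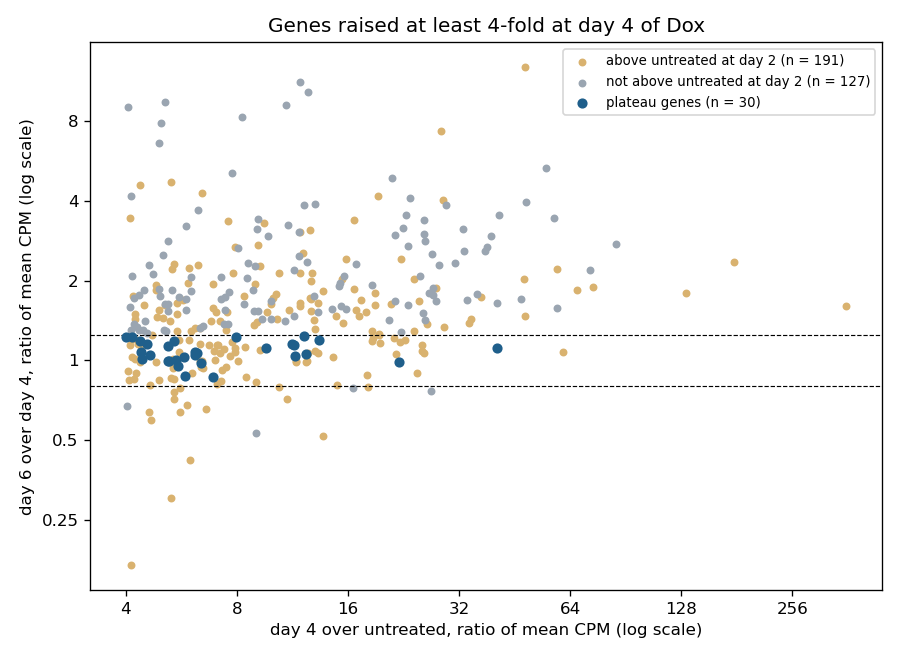
Ratio of mean CPM at day 4 over untreated (x axis, log scale) against day 6 over day 4 (y axis, log scale) for the 348 genes raised at least 4-fold at day 4. Dashed lines mark 0.8 and 1/0.8, and the 30 plateau genes (blue) lie between them, with ratios of day 4 over untreated from 4.01 to 40.6.

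The plateau genes were of higher starting level and smaller rise than the 123 that went on. Their median was 9.53 CPM untreated, 10.5 on day 2, 60.4 on day 4 and 67.1 on day 6. The 123 had medians of 2.87, 3.42, 28.7 and 69.1 CPM. The median rise by day 4 was 5.97-fold over the plateau genes and 10.8-fold over the 123. Both sets of genes were chosen on these values, so the contrast is a description. Deposited gene lengths were alike, with medians of 2744 bases (plateau genes), 2571 (the 123) and 2761 (all genes tested).

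Promoter sequences of plateau genes are shown because these genes share a time course and PU.1 binds ETS cores. RefSeq windows of 300 bases (250 before to 50 after a start, build GRCm38.p6, the first window listed per gene) were matched for 23 of the 30 plateau genes and for 9555 of the genes tested. The PU.1 core searched was GAGGAAG on either strand, and it was in the windows of 4 of the 23 (17.4%), namely Gramd4, Itgb7, Nostrin and Ppfia4. It was in 13.8% of the windows of all genes, in 18.6% of the 97 windows of the genes that went on rising after day 4 and in 25.4% of the 280 windows of all raised genes. The shorter ETS core GGAAGT was in 9 of the 23 (39.1%), in 39.2% of the 97, in 37.5% of the 280 and in 30.1% of all windows. It shares letters with the PU.1 core where the latter is followed by T, as in Nostrin. The following stretches lie before the annotated gene, printed on the gene's strand with the matched core in capitals (CTTCCTC and ACTTCC are the reverse complements).
Gramd4 (chr15:86057495-86057561, + strand, PU.1 core): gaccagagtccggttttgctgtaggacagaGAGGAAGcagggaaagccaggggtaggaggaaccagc
Nostrin (chr2:69135714-69135780, + strand, PU.1 core): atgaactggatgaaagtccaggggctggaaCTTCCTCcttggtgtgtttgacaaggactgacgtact
Bmyc (chr2:25706786-25706851, + strand, ETS core): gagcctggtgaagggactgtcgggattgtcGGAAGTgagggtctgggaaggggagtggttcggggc
F10 (chr8:13037219-13037284, + strand, ETS core): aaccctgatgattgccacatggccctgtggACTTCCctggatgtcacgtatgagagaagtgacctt
The cores begin 170 bases before the start in Gramd4, 56 in Nostrin, 63 in Bmyc and 59 in F10, counted from the upstream end of the match. A match to these letters is a description and not a binding site.

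Other motifs were counted in the same windows. The interferon element (GAAA, any 2 bases, GAAA) was in 0 of the 23 plateau windows, in 17 of the 97 windows (17.5%) of genes that went on rising and in 3.24% of all windows. The C/EBP core TTGCNNA was in 6 of 23 (26.1%), in 46.4% of the 97 and in 31.5% of all windows. TATAAA was in Clec7a and Hal only, 2 of 23 (8.70%), against 7.02% of all windows. On the genome no plateau gene had another within 100 kb. Only 2 of the 30 (6.67%) had any gene raised at least 4-fold within 100 kb, which were Clec7a beside Clec12a and Tmem132a beside Slc15a3. Among the 344 raised genes that could be placed, 78 (22.7%) had another within that distance.

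**Figure D2:**
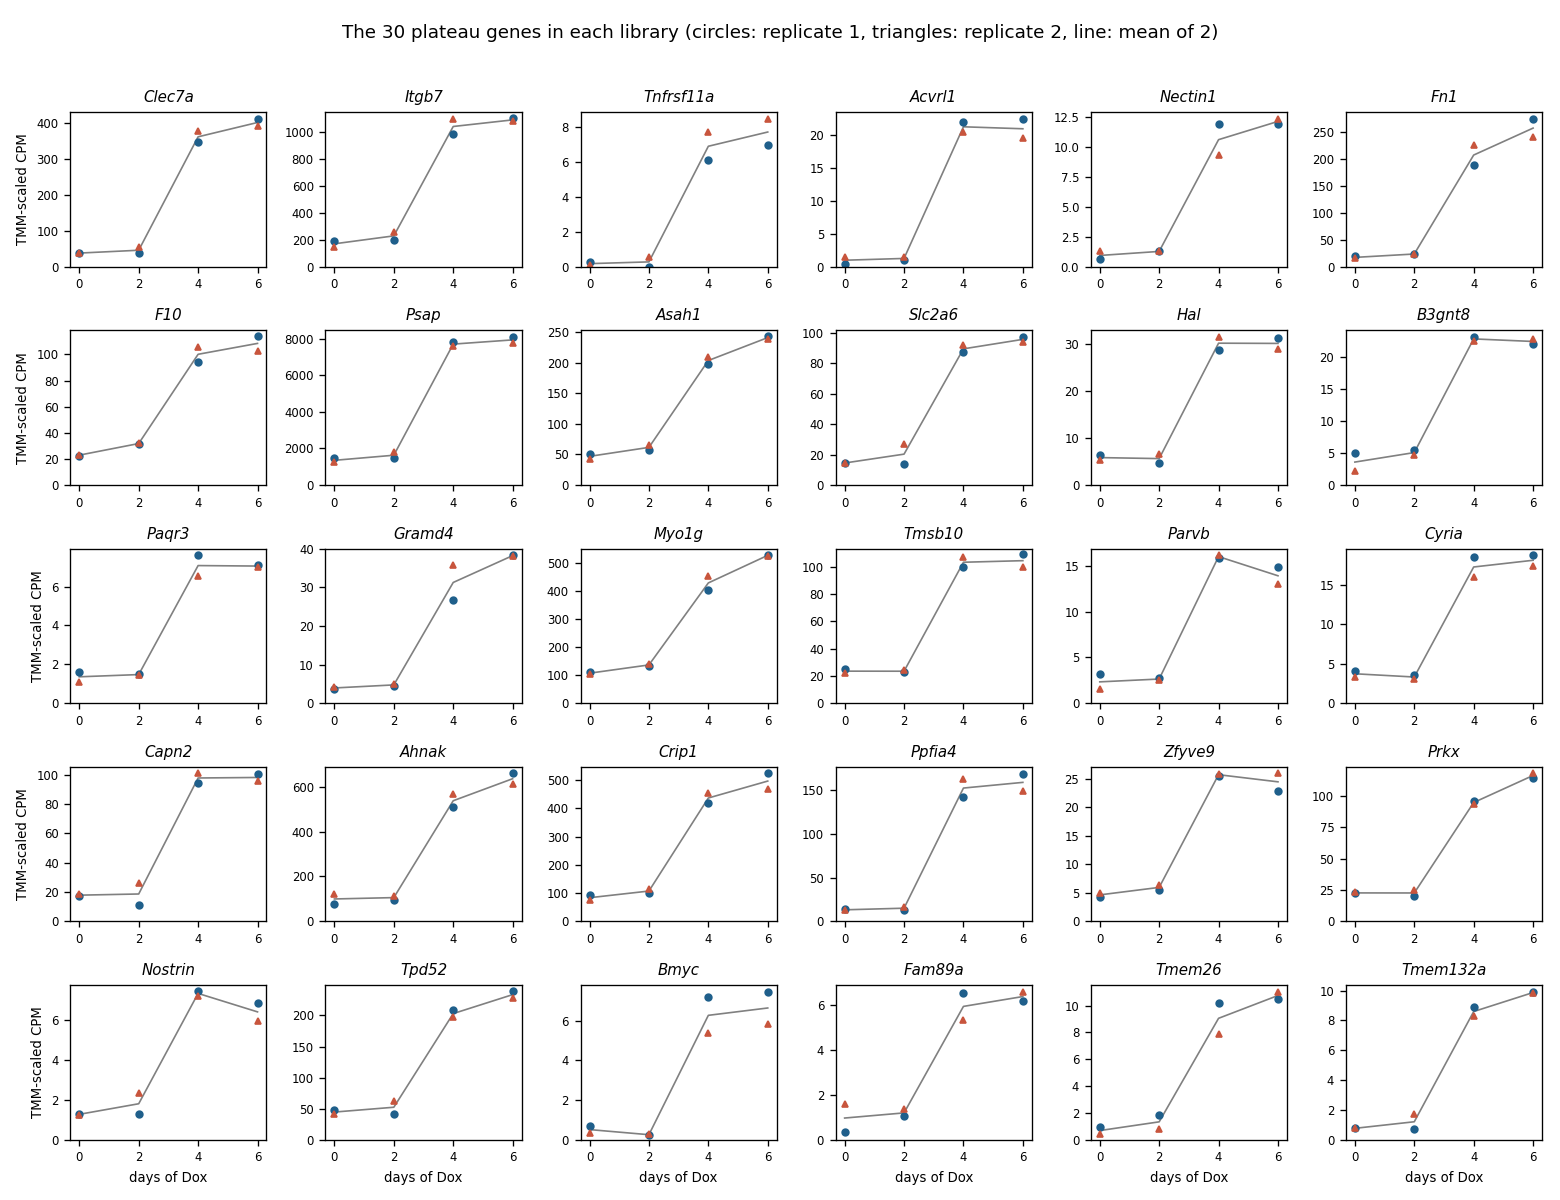
TMM-scaled CPM (y axes, linear from 0, a scale per gene) of each of the 30 plateau genes against days of Dox (x axes), with a point per library and a line through the mean of 2. In each panel the day 4 libraries lie above those of untreated cells and of day 2, and the day 6 libraries lie near those of day 4.

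Surface receptors made up a part of the set. Clec7a, which encodes Dectin-1, the receptor of phagocytes for fungal beta-glucan (gene 56644, chromosome 6, 129461591 to 129472785 in mm10), stood at 37.0 and 38.5 CPM untreated (replicates 1 and 2), 37.6 and 53.8 on day 2, 347 and 378 on day 4, and 413 and 392 on day 6. Its mean at day 4 was 9.61 times the untreated mean (log2 fold change 3.26, SE 0.13), and the day 6 libraries lay just above those of day 4 (1.1 times). Untreated and day 2 libraries of Clec7a overlapped. Itgb7 encodes the beta7 integrin chain, which pairs with alpha4 in leukocyte homing (gene 16421, chromosome 15, 102215994 to 102233405). Its libraries held 192 and 147 CPM untreated, 201 and 256 on day 2, 989 and 1095 on day 4, and 1102 and 1080.2 on day 6. The day 4 and day 6 libraries of Itgb7 overlapped, with a ratio of means of 1.05, whereas both day 2 libraries lay above both untreated ones (1.35 times). Per kb of length Itgb7 had a day 4 level of 389.8 CPM per kb against 159 for Clec7a.

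Tnfrsf11a encodes RANK, the receptor for the osteoclast cytokine RANK ligand (gene 21934, chromosome 1, 105780673 to 105849444), and started close to nothing. Its libraries held 0.255 and 0.0839 CPM untreated, 0 and 0.539 on day 2, 6.08 and 7.70 on day 4, and 6.98 and 8.43 on day 6. The untreated mean rests on 4 counts over both libraries against 146 at day 4, so the ratio of 40.6, the highest of the set, is loose (log2 fold change 5.25, SE 0.58). Acvrl1, which encodes ALK1, a type 1 receptor of the TGF-beta superfamily (gene 11482, chromosome 15, 101128522 to 101145336), gave 0.426 and 1.51 CPM untreated, 1.04 and 1.44 on day 2, 22 and 20.5 on day 4, and 22.4 and 19.5 on day 6. The untreated libraries of Acvrl1 differed by 3.55 times, on 5 and 18 counts, while the day 4 and day 6 libraries overlapped (ratio 0.986). Nectin1, an adhesion molecule of the immunoglobulin family (gene 58235, chromosome 9, 43737075 to 43807461), had 0.596 and 1.26 CPM untreated, 1.27 and 1.26 on day 2, 11.9 and 9.26 on day 4, and 11.9 and 12.3 on day 6, a ratio of day 4 to untreated of 11.4. The transmembrane protein genes Tmem26 (gene 327766, chromosome 10, 68723746 to 68782655) and Tmem132a (gene 98170, chromosome 19, 10857829 to 10870205) also rested on few counts in untreated cells. Tmem26 had 0.937 and 0.419 CPM untreated, 1.85 and 0.808 on day 2, 10.2 and 7.90 on day 4, and 10.5 and 11 on day 6. For Tmem132a the libraries gave 0.766 and 0.755 CPM untreated, 0.692 and 1.71 on day 2, 8.90 and 8.29 on day 4, and 9.91 and 9.83 on day 6. Both had day 2 means over 1.4 times untreated (1.96 and 1.58) and met the rule only because their day 2 and untreated libraries overlapped, as did B3gnt8, Nostrin, Slc2a6 and Tnfrsf11a. The span of Tmem132a overlaps that of Slc15a3 on the opposite strand, which itself went from a mean of 6.68 CPM in untreated cells to 124 at day 4 and 159 at day 6, and since the counting is not stated to use strand their reads may be mixed.

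Secreted proteins were represented by Fn1 and F10. Fn1 encodes fibronectin, a matrix glycoprotein that monocytes also make (gene 14268, chromosome 1, 71585473 to 71653280), and it had 19.1 and 15.2 CPM untreated, 23.4 and 23.5 on day 2, 189.6 and 226 on day 4, and 275 and 241 on day 6. Both day 6 libraries of Fn1 exceeded both day 4 libraries, and its ratio of 1.24 is nearest to the upper limit of the rule. F10 encodes coagulation factor X (gene 14058, chromosome 8, 13037308 to 13056676). The gene gave 22.4 and 23.2 CPM untreated, 31.1 and 32.3 on day 2, 94.3 and 106 on day 4, and 114 and 103 on day 6. Its day 2 libraries both lay above the untreated ones, at 1.39 times, nearest to the day 2 limit, and the day 4 and day 6 libraries overlapped.

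Lysosomal genes included the most abundant member. Psap encodes prosaposin, the precursor of the saposins that help lysosomal enzymes break down sphingolipids (gene 19156, chromosome 10, 60277628 to 60302600). Its libraries held 1458 and 1225 CPM untreated, 1460.3 and 1779 on day 2, 7820.1 and 7569 on day 4, and 8107 and 7743 on day 6. At day 4 this was 2817 CPM per kb, the highest level per length of the 30, 5.73 times untreated (log2 fold change 2.52, SE 0.13), and the libraries of days 4 and 6 overlapped (ratio 1.03). Asah1 encodes acid ceramidase, which cleaves ceramide in the lysosome (gene 11886, chromosome 8, 41340646 to 41397644), and held 50.4 and 42.9 CPM untreated, 57.2 and 65.5 on day 2, 198 and 209 on day 4, and 243 and 239 on day 6. Its day 6 libraries both exceeded those of day 4, at 1.18 times. Of 54 genes of the lysosome list tested, 8 were raised at least 4-fold at day 4. Of those 8, 7 were level at day 6, against 29.6% of all raised genes. Psap and Asah1 are among the 7 because the rule chose level genes, so this share is a description. Besides Psap and Asah1 the level ones were the cathepsin genes Ctsc and Ctsh, the legumain gene Lgmn, Cd68 and the cystatin gene Cst3, each of which stood above untreated by day 2. Ctss, another cathepsin gene, was the eighth, with 555 CPM at day 4 and 817 at day 6. Of the 52 genes of this list outside the plateau set, 36 rose and 4 fell at day 4 (edgeR adjusted p under 0.05, median log2 fold change 0.84), while 12 rose and 6 fell from day 4 to day 6 (median 0.08). Over all genes tested 26.1% rose at day 4, and 15.9% rose and 14% fell from day 4 to day 6.

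Other enzymes and membrane proteins of the set work on sugars, amino acids and membranes. Slc2a6 encodes GLUT6, a sugar transporter family member (gene 227659, chromosome 2, 27021363 to 27028000), with 14.5 and 14.3 CPM untreated, 13.8 and 26.7 on day 2, 87.3 and 92.0 on day 4, and 97.7 and 94.1 on day 6. Of 201 solute carrier genes tested it was the only plateau gene. Its day 2 libraries straddled the untreated ones, with replicate 2 the higher. Hal encodes histidine ammonia-lyase, the first enzyme of histidine breakdown (gene 15109, chromosome 10, 93488768 to 93516761), and its libraries gave 6.39 and 5.20 CPM untreated, 4.61 and 6.55 on day 2, 28.7 and 31.5 on day 4, and 31.2 and 28.9 on day 6. The means of Hal at days 4 and 6 were almost equal (ratio 0.998), and those of untreated and day 2 cells likewise (0.964). B3gnt8, a glycosyltransferase gene that extends N-glycans (gene 232984, chromosome 7, 25627600 to 25629492), stood at 5.02 and 2.10 CPM untreated, 5.42 and 4.67 on day 2, 23.1 and 22.5 on day 4, and 22 and 22.8 on day 6. In the GENCODE annotation the span of B3gnt8 overlaps that of Bckdha on the other strand, so their reads may be mixed. Bckdha had mean CPM of 44.8 in untreated cells and 46.1 at day 4. Paqr3, which encodes a Golgi membrane protein that tethers RAF kinase (gene 231474, chromosome 5, 97081364 to 97111749), had 1.62 and 1.09 CPM untreated, 1.5 and 1.44 on day 2, 7.63 and 6.53 on day 4, and 7.09 and 7.02 on day 6, and its span overlaps Bmp2k (32.6 CPM in untreated cells and 51.0 at day 4). The ratio of day 6 to day 4 was 0.997 for Paqr3, among the closest to 1. Gramd4, a GRAM domain protein gene (gene 223752, chromosome 15, 86057695 to 86137636), had 3.58 and 4.28 CPM untreated, 4.50 and 4.94 on day 2, 26.8 and 35.7 on day 4, and 38.3 and 38.1 on day 6. Both day 6 libraries of Gramd4 were above both day 4 libraries, of which replicate 1 was the lower.

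A further group was made by known role in actin or adhesion, and of it only Myo1g was in the actin and small GTPase list. Myo1g, an unconventional myosin of the leukocyte membrane (gene 246177, chromosome 11, 6506548 to 6520960), gave 111 and 103 CPM untreated, 132 and 141 on day 2, 403 and 456 on day 4, and 531 and 525 on day 6. It lies close to 2 limits, with a rise of 4.01 times and a ratio of day 6 to day 4 of 1.23. Tmsb10 encodes thymosin beta 10, which binds actin monomers (gene 19240, chromosome 6, 72957347 to 72958748), at 24.9 and 22 CPM untreated, 22.7 and 24.1 on day 2, 99.6 and 107 on day 4, and 109 and 99.9 on day 6. Its untreated and day 2 means were nearly equal (ratio 1.0), and so were those of days 4 and 6 (1.01). Parvb encodes beta-parvin, a focal adhesion protein that binds integrin-linked kinase (gene 170736, chromosome 15, 84232043 to 84315689), and had 3.15 and 1.51 CPM untreated, 2.77 and 2.51 on day 2, 15.9 and 16.2 on day 4, and 14.9 and 13 on day 6. It had the lowest ratio of day 6 to day 4, 0.868, with both day 6 libraries under both of day 4. Cyria, which encodes a protein that binds the GTPase Rac1 (gene 76820, chromosome 12, 12262134 to 12380965), held 4.09 and 3.35 CPM untreated, 3.57 and 3.05 on day 2, 18.5 and 16.0 on day 4, and 18.8 and 17.4 on day 6. Here the libraries of untreated cells and day 2 overlapped, as did those of days 4 and 6.

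Capn2 encodes the large subunit of calpain 2, a calcium-dependent protease of adhesion turnover (gene 12334, chromosome 1, 182467253 to 182517610). Its libraries held 17.4 and 18.4 CPM untreated, 11.4 and 26 on day 2, 94.7 and 101 on day 4, and 100.4 and 96.0 on day 6. The day 2 libraries lay on both sides of the untreated ones and differed by 2.28 times, among the widest gaps at day 2. Ahnak, a very large scaffold protein gene (gene 66395, chromosome 19, 8989284 to 9076935), had 77.7 and 122 CPM untreated, 96.8 and 115 on day 2, 508 and 566 on day 4, and 659 and 611 on day 6. Day 6 libraries of Ahnak were above those of day 4, at 1.18 times. Crip1 encodes a small LIM domain protein (gene 12925, chromosome 12, 113152012 to 113153879) and stood at 93.1 and 74.6 CPM untreated, 101 and 114 on day 2, 419 and 455 on day 4, and 525 and 469 on day 6. With a deposited length of 447 bases it had 978 CPM per kb at day 4, next to Psap in the set. Ppfia4 encodes liprin-alpha 4 of the liprin scaffold family (gene 68507, chromosome 1, 134296783 to 134344756), which had mean CPM of 13.3 ± 0.741 (SD, n = 2) untreated, 15.1 ± 2.55 on day 2, 152 ± 14.6 on day 4 and 159 ± 14.1 on day 6. It was 11.5 times as high at day 4 as in untreated cells (log2 fold change 3.52, SE 0.12), and its libraries of days 4 and 6 overlapped.

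Signalling, trafficking and remaining genes closed the set. Zfyve9 encodes SARA, which presents SMAD proteins to TGF-beta receptors (gene 230597, chromosome 4, 108637466 to 108781269), and had 4.34 and 4.95 CPM untreated, 5.54 and 6.37 on day 2, 25.5 and 25.9 on day 4, and 22.9 and 26 on day 6. The mean at day 6 was 0.950 times that of day 4, and the libraries overlapped. In the GENCODE annotation its span overlaps 3110021N24Rik on the other strand. Prkx, an X-linked kinase gene of the cAMP-dependent family (gene 19108, chromosome X, 77760972 to 77796235), stood at 22.2 and 23.1 CPM untreated, 20 and 25.2 on day 2, 95.4 and 93.6 on day 4, and 114 and 118 on day 6. Its untreated and day 2 means were nearly equal (ratio 0.996), whereas both day 6 libraries were above both of day 4 (1.23 times). Nostrin encodes a trafficking protein of nitric oxide synthase (gene 329416, chromosome 2, 69135800 to 69189330), with 1.28 and 1.26 CPM untreated, 1.27 and 2.33 on day 2, 7.44 and 7.22 on day 4, and 6.87 and 5.94 on day 6. Both day 6 libraries of Nostrin lay under both of day 4. Tpd52, named tumour protein D52, a regulator of vesicle traffic (gene 21985, chromosome 3, 8926530 to 9005393), gave 48.1 and 40.8 CPM untreated, 41.9 and 62.5 on day 2, 209 and 197 on day 4, and 239 and 228 on day 6. Its day 6 libraries were above those of day 4. Bmyc is a Myc family gene (gene 107771, chromosome 2, 25706879 to 25707721) that had 0.681 and 0.335 CPM untreated, 0.231 and 0.269 on day 2, 7.17 and 5.36 on day 4, and 7.43 and 5.84 on day 6. It was the only plateau gene whose day 2 libraries both lay under the untreated ones, on 12 counts in untreated cells. Fam89a (gene 69627, chromosome 8, 124740257 to 124751866) held 0.341 and 1.59 CPM untreated, 1.04 and 1.35 on day 2, 6.54 and 5.36 on day 4, and 6.19 and 6.59 on day 6, and its untreated libraries differed the most of the set, by 4.68 times on 4 and 19 counts.

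How well the plateau is fixed differed between genes. In edgeR the standard error of the log2 fold change of day 6 against day 4 ran from 0.08 to 0.35 over the 30 genes (median 0.14), while the rule's limits lie 0.32 either side of 0. For 13 of the 30, 2 standard errors exceed 0.32, the distance from 0 to either limit. All 30 were above untreated at day 4 in the test as in the rule (edgeR adjusted p under 0.05, 26.1% of all genes up). From day 4 to day 6 Fn1, Myo1g and Prkx were called up and none down (15.9% and 14% of all genes, 29.9% in either direction). At day 2 Asah1, F10 and Myo1g were called up and none down (4.18% of all genes up, 6.13% in either direction). These contrasts chose the genes, so the counts are given for completeness. Day 4 and day 6 libraries did not overlap in 15 of the 30 genes, against 71.0% of all genes, and day 2 and untreated libraries did not overlap in 10, against 48.6%. With total counts as scaling, the median chi-square per degree of freedom between libraries of a group was 5.76 at day 2. It was 1.82 in untreated cells, 1.18 at day 4 and 0.716 at day 6. These medians over genes compare the groups with each other and are not set against a level of counting noise. Over the plateau genes the median ratio of the higher to the lower library was 1.19 at day 2 and 1.21 in untreated cells. Wide pairs overlap more easily, and 6 of the 30 met the rule only by overlap. At day 2 the mean exceeded the untreated mean in 26 of the 30, with a median log2 ratio of 0.33, and in 92 of the 123 genes that went on rising. Over all genes tested the day 2 mean was the higher in 6263 of 12330, and the median log2 ratio was 0.0.

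**Figure D3:**
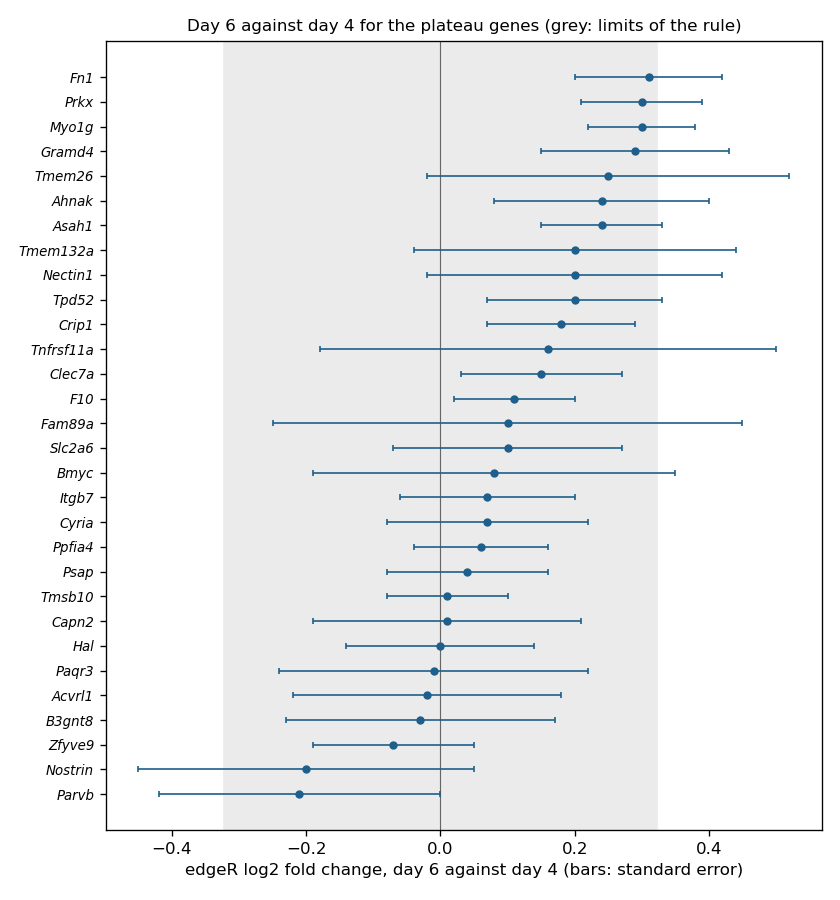
edgeR log2 fold change of day 6 against day 4 (x axis) with its standard error (bars) for each of the 30 plateau genes (y axis), the grey band marking the limits of the rule. Standard errors run from 0.08 to 0.35, and Fn1, Prkx and Myo1g lie nearest the upper limit while Parvb lies lowest.

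Values on both sides of the limits show how close the choice was. Myo1g (4.01), Prkx (4.17) and Asah1 (4.36) lay just inside the 4-fold limit, while Trpv2, with 25.3 CPM in untreated cells and 101 at day 4, fell just short. At the lower limit of the plateau Parvb (0.868) and Nostrin (0.874) were inside and Clec10a (0.789) and Kctd14 (0.765) outside. At the upper limit Fn1 (1.24), Prkx (1.23) and Myo1g (1.23) were inside and Adam15 (1.26), Gpr35 (1.28) and Trex1 (1.30) outside. At the day 2 limit F10 (1.39) and Fn1 (1.37) were inside and S100a10, Rftn1 and Ago4 (1.41 each) outside. At the 5 CPM limit Fam89a (5.95) and Bmyc (6.27) were inside and Itga8 (4.70) and Ahr (4.54) outside.

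The rule was then applied to 1 library of each group and read in the other. No library was new to the rule, which was set with earlier results of these data known. With only the replicate 1 library of each group, and without the overlap clause, 44 genes met the rule, of which 20 are among the 30. In the replicate 2 libraries 36 of the 44 (81.8%) were level between days 4 and 6, against 31.1% of all 399 genes raised at least 4-fold in those libraries. Of the 44, 39 were raised at least 4-fold there, but only 15 were under 1.4 times untreated at day 2, and 9 met every condition. With replicate 2 libraries used to choose, 23 genes met the rule, 13 of them among the 30. In the replicate 1 libraries 14 of the 23 (60.9%) were level, against 27.2% of 334 raised genes, 18 were raised at least 4-fold, 19 were under the day 2 limit and 9 met every condition. The median ratio of day 6 to day 4 in the libraries read was 1.0 in the first reading and 1.19 in the second. All libraries share a scaling, and the replicate numbers were taken only as names. Their titles call them technical replicates, so libraries of a group may be alike for that reason, and these shares are a description. The shares of the 44 and 23 also count genes not raised 4-fold in the libraries read, whereas 31.1% and 27.2% count raised genes only. The shares are therefore not like for like, and they give no replication of the plateau. The 9 genes chosen in both were Bmyc, Clec7a, Cyria, F10, Hal, Paqr3, Ppfia4, Tmsb10 and Zfyve9.

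Membership was followed over 11 other settings, 3 of scaling or filter and 8 that each leave out a library. Bmyc, Hal, Paqr3, Ppfia4, Psap and Zfyve9 met the rule in all 11. Myo1g met it in 4 of 11 and Fn1 in 7 of 11. Without day 2 replicate 1, 22 genes met the rule, 19 of them among the 30, and Clec7a, Itgb7, Capn2, Slc2a6, Tnfrsf11a, Asah1, F10, Myo1g, Nostrin, Tmem132a and Tpd52 did not.

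Of 27 lists of myeloid functions 8 held at least 1 plateau gene, and 8 of the 30 genes were in a list. This was a smaller share than among all 348 genes raised at least 4-fold at day 4, so the lists covered the plateau genes less well than raised genes in general. The cytokine and growth factor receptor list had 11 raised genes of 52 tested, 6 of them level at day 6, among them Acvrl1, and the monocyte and macrophage list had 16 of 28, 7 of them level, among them Fn1. Of 10 raised C-type lectin receptor genes 7 were higher at day 6, for instance Clec4b2 and Clec4a3, and 2 were level, Clec7a and Clec4b1. Of 6 raised Fc receptor and integrin genes 4 were higher at day 6, such as Itgb2l, with 7.87 CPM at day 4 and 71.3 at day 6, and Itgb7 and Tyrobp were level. Among 6 raised genes of the actin and small GTPase list Myo1g alone was level. The list of known PU.1 targets (33 tested) held 0 plateau genes, and of its 13 raised genes 10 were higher at day 6 and 3 level. Of the 13, only 1 (Fcgr1) met the day 2 condition of the rule, so the 0 follows mostly from that condition. No plateau gene was in the secondary and tertiary granule list, the late neutrophil list, the interferon list or the Ms4a list, whose raised genes (11, 4, 21 and 6) were all above 1/0.8 times their day 4 mean at day 6. Lactoferrin (Ltf) was one of these, at 431 CPM on day 4 and 4859 on day 6 (edgeR adjusted p = 7.64e-05 for a log2 fold change of 3.5). Outside the plateau set, 20 of 24 secondary and tertiary granule genes and 67 of 83 interferon genes rose from day 4 to day 6 in the edgeR test, against 15.9% of all genes.

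**Figure D4:**
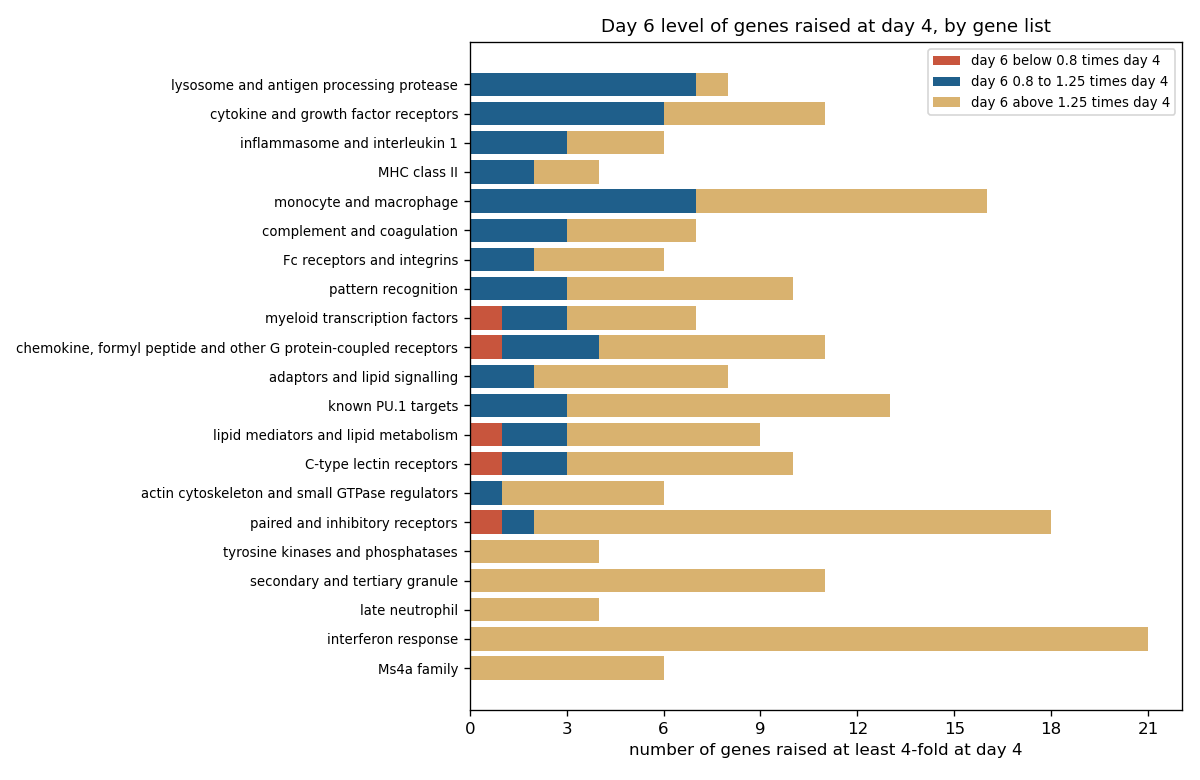
Number of genes raised at least 4-fold at day 4 (x axis) in each list with 4 or more such genes (y axis), split by the level at day 6 relative to day 4. In the lysosome list 7 of 8 are level, among them Psap and Asah1, which the rule chose as level. In the interferon list all 21 are above 1/0.8 times day 4.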

How the data were processed

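RNA-seq counts of 8 libraries (4 groups of 2) were analysed. Each deposited file gives whole-number counts per Entrez gene and a gene length in bases, per the file headers. Per the submitters' processing notes, the build was mm10 and the tools were featureCounts, CASAVA 1.8.2, limma 3.22.0 and edgeR 3.8.2. Aligner and strand setting: not given in the sources used here. Of 12830 genes, filterByExpr kept 12330, and the 500 removed held 0.0267% of counts. Symbols were matched to RefSeq (GRCm38.p6) for 12555 gene identifiers, and coordinates are from that table.

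Counts were fitted with edgeR 4.0.16 in R 4.3.3 (TMM, group means over all 8 libraries, glmQLFit and glmQLFTest, Benjamini-Hochberg, threshold 0.05), and DESeq2 1.42.0 was an alternative. The script was tested on simulated data. CPM used the TMM-scaled library size, and overlap means that the ranges of both libraries meet. The rule, its members, the gene lists and the alternatives were chosen with earlier results of these data known. Named with values were all members, the genes nearest each limit and examples from lists; some genes under this rule are not reported here. Alternatives were other scalings, no filter, other limits, a replicate block and leaving out each library. Replicate numbers were checked for pairing.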

Additional observations from a re-analysis of the deposited data

How the results depend on the processing

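The plateau set of 30 genes counted 29 with RLE size factors, 45 with total counts, 33 without the filter and 22 to 43 when a library was left out. Of the 30 genes themselves, 28 remained with RLE size factors, 21 with total counts, 30 without the filter and 19 to 28 when a library was left out. The set counted 16 with day 6 between 0.9 and about 1/0.9 times day 4, 53 between 0.67 and 1.5 times, 65 with a rise of at least 3 times and 9 with at least 8 times. The median log2 ratio of its genes at day 6 over day 4 was 0.10, -0.08 with total counts, and 0.06 to 0.15 when a library was left out. At day 4 over untreated it was 2.58, 2.32 with total counts, and 2.51 to 2.65 when a library was left out. The share of raised genes that were level was 28.3 to 31.7% over all alternatives run. With total counts the edgeR calls split into 1816 up and 4519 down at day 4 (3217 and 2707 with TMM), 881 and 2646 from day 4 to day 6 (1961 and 1728), and 170 and 658 at day 2 (516 and 240). Calls from day 4 to day 6 numbered 3689, and 1726 to 4193 when a library was left out, where leaving out day 4 replicate 1 gave 1731 and leaving out replicates 1 and 2 of day 6 gave 2132 and 1726. Calls at day 2 numbered 756, and 325 to 1325 when a library was left out, the extremes being without untreated replicate 2 and replicate 1. A lone library left in a group is assumed to vary like the other groups. The cause was not tested. Same-numbered libraries showed little shared deviation (correlations from -0.13 to 0.21, the highest between untreated and day 2). A weak correlation cannot exclude that the numbers pair the libraries. With the replicate block the calls were 5787 at day 4 (5924 without), 3493 from day 4 to day 6, 612 at day 2 and 7718 at day 6 against untreated (7839 without).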

Other observations

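Known partners of plateau genes were read in the same edgeR fit. These 43 pairings were chosen after the plateau genes were known, and 37 of the partners were tested. At day 4, 16 rose and 7 fell (26.1% and 22% of all genes), and from day 4 to day 6, 12 rose and 7 fell (15.9% and 14%).

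Itga4, the alpha4 chain that pairs with the product of Itgb7, had means of 238 CPM in untreated cells, 556 at day 4 and 633 at day 6. It rose at day 4 (log2 fold change 1.23, SE 0.10, edgeR adjusted p = 1.36e-06), and its difference from day 4 to day 6 did not pass the test (0.19, SE 0.10, adjusted p = 0.167). Grn encodes progranulin, which binds prosaposin. It rose from 378 CPM to 1219 at day 4 (log2 fold change 1.69, SE 0.11, edgeR adjusted p = 2.91e-07) and stood at 1329.5 at day 6 (0.12, SE 0.11, adjusted p = 0.417). Galc, whose lysosomal enzyme uses a saposin, rose from 19.4 to 32.8 CPM, while Arsa, of another saposin-dependent enzyme, had a log2 fold change at day 4 of -0.07 (edgeR adjusted p = 0.552).

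Other partners had other courses. Syk, the kinase below Dectin-1, rose at day 4 (log2 fold change 0.92) and again by day 6 (0.48, SE 0.07, edgeR adjusted p = 0.000743), and Card9, the adaptor of that pathway, fell at day 4 (-0.28, adjusted p = 0.027), while its difference from day 4 to day 6 did not pass the test (0.17, adjusted p = 0.182). Slc2a3, which encodes the glucose transporter GLUT3, had 10.1 CPM in untreated cells, 28.0 at day 4 and 184 at day 6 (day 6 against day 4 log2 fold change 2.72, SE 0.18, edgeR adjusted p = 6.96e-06). F7, of coagulation factor VII, which activates factor X, had 26.5 CPM in untreated cells and 22.3 at day 4, and fell to 6.68 at day 6 (-1.74, SE 0.25, edgeR adjusted p = 0.000458). Myc had 110.0 and 230.4 CPM untreated, 120.4 and 64.4 on day 4, and 43.7 and 40.2 on day 6. It was called lower at day 4 (edgeR adjusted p = 0.0331), although the untreated and day 4 libraries overlapped, and lower again at day 6 (adjusted p = 0.0241), where the libraries lay apart from those of day 4.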
